A study of Mus musculus with 8 samples.

Results

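Keratin genes of the mouse tongue, 8 in all, were examined in a pair of classes, the stress keratins Krt6a, Krt6b, Krt16 and Krt17 and the simple epithelial keratins Krt7, Krt8, Krt18 and Krt19. They were selected on their gene symbols with the fold changes and adjusted p-values of the comparison described here already known, so those values are given as a description and test nothing about the choice. All 8 had a row among the 15540 genes of the authors' deposited table.

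The tissue was tongue epithelium of C57BL/6 mice, all of which carried K14-rtTA and TRE-FLBmi-1, transgenes that together are labelled KrTB. The keratin 14 promoter places the doxycycline-dependent transactivator in basal keratinocytes, and the Bmi-1 construct sits behind its response element. The KrTB group (4 libraries) is taken to have had plain water, and the KrTB+DOX group (4 libraries) had doxycycline at 2 mg/mL in the water. The sources used here give no age, sex or duration of treatment, and a doxycycline group without the transgenes was not analysed here, so doxycycline and the construct cannot be told apart. Values per library were not analysed here either: the depth of each library is unknown, and whether the groups overlapped could not be seen for any gene. The deposited statistics have limma's form.

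Keratins form filaments as obligate pairs of a type I and a type II chain. Stratified epithelia build their basal filaments from Krt5 and Krt14 and replace them in upper layers, in the tongue with Krt4 and Krt13. Krt6a, Krt6b, Krt16 and Krt17 are the chains that keratinocytes add after wounding and in hyperproliferation, and they also belong to the normal program of tongue papillae. Krt8 and Krt18 are the founding pair of single-layered epithelia, joined by Krt7 and Krt19 in ducts. In the tongue, Krt8, Krt18 and Krt19 are known from taste buds, and Krt7 and Krt19 from gland ducts.

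As background for every count, the share of all genes called at an adjusted p under 0.05 was 8.13% in either direction. By direction it was 3.82% higher and 4.31% lower in KrTB+DOX. At an unadjusted limma p under 0.05, 1905 of the 15540 genes were higher and 2018 lower. Without any threshold, 7588 of the 15540 log2 fold changes lay above 0 and 7952 below it. A positive log2 fold change is read as higher in KrTB+DOX because Bmi1 had 5.42 (SE 0.10) in the authors' deposited table, which calls its groups just control and perturbation. The 9 keratinocyte markers were all measured, with Krt13 (13.98 log2 CPM, log2 of library-scaled read counts) and Krt4 (13.88) at the top in the authors' deposited table. The libraries also held other tissue: all 17 skeletal muscle markers were measured, with a median of 11.15 log2 CPM. From KrTB to KrTB+DOX the summed level of those muscle markers went from 61575 to 54127 CPM, with 1 of 17 (Pax7) lower, and that of 11 fibroblast markers from 3642 to 1938 CPM, with 5 lower. Of the remaining lists, 2 of 9 keratinocyte markers rose (Krt15 and Trp63), 1 of 13 immune markers (Cd68) and 1 of 9 endothelial markers (Cdh5) fell, and 0 of 7 melanocyte and Schwann cell markers passed by limma, also at an unadjusted p under 0.05. The summed level of the 9 keratinocyte markers went from 42977 to 39451 CPM, and 3 of them, Krt13 and Krt4 included, lay below 0. The most abundant, Krt13, went from 17837 to 14629 CPM, and the other 8 together from 25140 to 24822 CPM. Among those 8, Krt4 went from 14.00 to 13.75 log2 CPM. Since 6 of the 9 lay above 0, with a median log2 fold change of 0.15, the sum does not stand for each marker. The part of these marker differences in the keratin values was not tested, and in bulk tissue fewer cells of a type and less RNA per cell cannot be told apart.

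Of the stress keratins Krt17 rose, and Krt6a, Krt6b and Krt16 had estimates above 0 that did not pass the threshold. Of 4 stress keratins 1 was called higher, beside 3.41% of the 469 genes that averaged 8 log2 CPM or more. All 4 fold changes lay above 0, their median log2 fold change was 1.06 against -0.01 over all genes, and all 4 had 95% intervals above 0 before adjustment. Of the simple epithelial keratins Krt18 and Krt8 rose, Krt19 had a wide interval and Krt7 lay below 0. That is 2 of 4 called higher, with a median of 1.27, where 2.07% of 2466 genes averaging below 1 log2 CPM and 4.17% of 12605 genes from 1 to 8 log2 CPM were called higher.

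**Figure D1:**
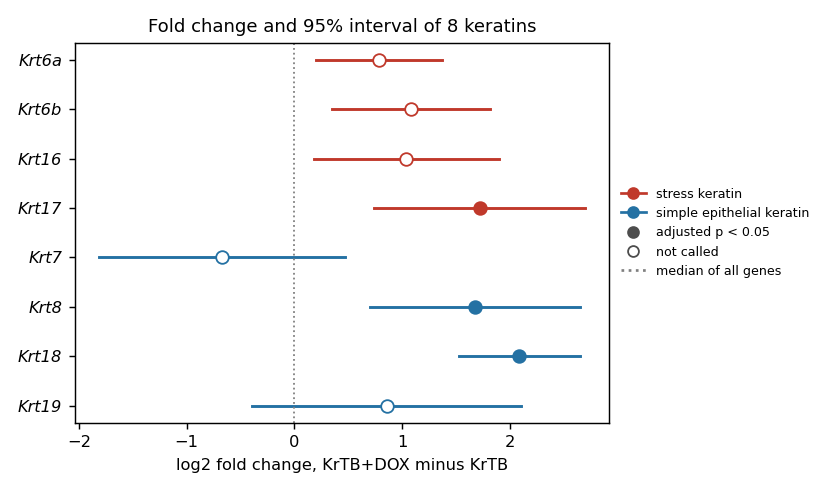
Log2 fold change of each keratin (x axis, KrTB+DOX minus KrTB) with its 95% interval (bars), stress keratins in red and simple epithelial keratins in blue, filled where the adjusted p was under 0.05 and with the median of all genes as a dotted line. Krt17, Krt8 and Krt18 are filled, the intervals of 6 keratins lie above 0, and those of Krt7 and Krt19 cross it.

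Krt17 is a type I chain of injured and rapidly growing epithelium, of hair follicles and of basal cell tumours, and it also binds signalling adaptors. Read from the deposited mean and fold change, it stood at 8.11 log2 CPM in KrTB and 9.83 in KrTB+DOX. The authors' deposited table gave Krt17 a log2 fold change of 1.72, here with an SE of 0.44 and a limma adjusted p of 0.0413. As a ratio this was 3.30-fold higher, with a 95% interval of 1.67 to 6.50. Tested against a 1.2-fold change in place of no change, Krt17 was not called (limma-type adjusted p = 0.148).

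Krt16, the other type I stress chain and the usual partner of Krt6a, stood at 9.83 log2 CPM in KrTB and 10.87 in KrTB+DOX. Its log2 fold change of 1.04 had an SE of 0.38, and the authors' deposited table gave a limma adjusted p of 0.124. The interval of the ratio ran from 1.13-fold to 3.73-fold. Krt16 therefore had an estimate near 2.06-fold that did not pass over the whole table.

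The type II stress chains are close duplicates of each other. Krt6a went from 10.86 to 11.64 log2 CPM and was 1.72-fold higher (95% interval 1.15 to 2.58), and the authors' deposited table gave it a limma adjusted p of 0.0927. Krt6b went from 9.06 to 10.15 log2 CPM and was 2.12-fold higher (95% interval 1.27 to 3.53), where the authors' deposited table had a limma adjusted p of 0.073. Neither was called at 0.05, and both would be at an adjusted p under 0.1, where 7.39% of all genes were higher.

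Scaled to exon length, Krt6a and Krt16 were the higher of the stress keratins and Krt6b and Krt17 the lower. Their levels in KrTB were 9.58 log2 CPM per kb for Krt6a, 9.18 for Krt16, 7.90 for Krt6b and 7.48 for Krt17. In KrTB+DOX the levels were 10.37 log2 CPM per kb for Krt6a, 10.22 for Krt16, 8.99 for Krt6b and 9.20 for Krt17. Krt6a and Krt16 lay within 0.40 log2 units of each other in both groups, as did Krt6b and Krt17 within 0.42, less than or about the spread of 0.37 to 0.62 between libraries that the SEs imply, so no order within these pairs is read from the levels. Added up, the type II chains Krt6a and Krt6b went from 1005 to 1829 CPM per kb and the type I chains Krt16 and Krt17 from 760.1 to 1785 CPM per kb. These were changes of 1.82-fold and 2.35-fold, and their difference was not tested, since the values do not show how the genes vary together.

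**Figure D2:**
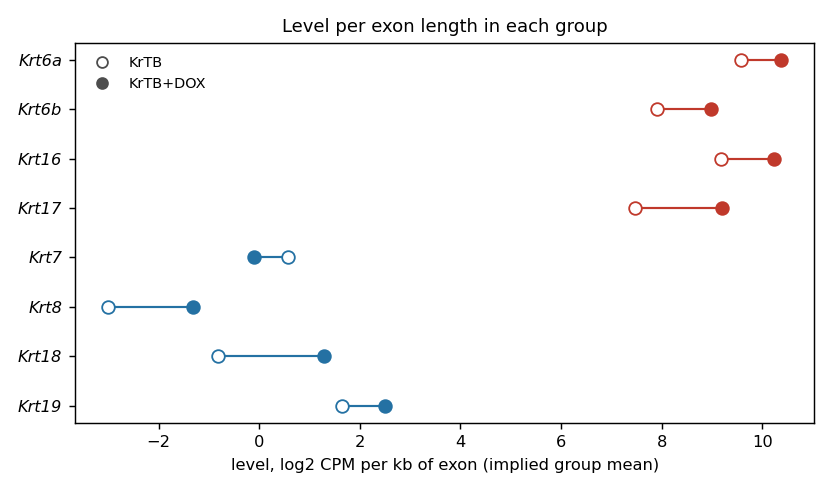
Level of each keratin in log2 CPM per kb of exon (x axis) in KrTB (open) and KrTB+DOX (filled), taking the deposited mean as the midpoint of the groups, red for stress and blue for simple epithelial keratins. The 4 stress keratins lie between 7.48 and 10.37 and the 4 simple keratins between -3.00 and 2.49, and only Krt7 has its filled point to the left.

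Single reads of this length do not always tell the stress keratins apart. In GENCODE M21 the coding sequences of Krt6a and Krt6b were 97.6% identical over 1662 alignment columns, against 70.4% for Krt16 and Krt17. Of the 2415 distinct 51-base words in Krt6a transcripts (51 bases being the read length), 45.4% also occurred in transcripts of another gene, mostly Krt6b (40.0%), and then Gm5478 (9.03%) and Krt5 (6.13%). For Krt6b the share was 49.7% of 2185 words, with 44.2% in Krt6a. The second read of a pair can separate some of these, and the sources used here do not say how shared reads were counted, so the split between Krt6a and Krt6b is uncertain.

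Krt16 shared 37.0% of its 1515 words, 25.0% with Gm11597 and 12.0% with Krt14. Gm11597 lies next to Krt16, and the authors' deposited table gave it a log2 fold change of 1.52 (SE 0.45, limma adjusted p 0.0683) at a low mean of 0.21 log2 CPM. Krt14, the basal chain, stood at a log2 fold change of 0.80 (SE 0.28, limma adjusted p 0.11) in the authors' deposited table, at 10.87 log2 CPM. Krt17 shared only 3.60% of its 1501 words, mainly with Krt14 (3.40%), so its value is the least exposed of the 4 to reads of another keratin.

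Krt18 had the largest fold change of the 8 keratins. It is the type I chain of simple epithelia and the partner of Krt8. Its level went from -0.29 log2 CPM in KrTB to 1.80 in KrTB+DOX, and it was 4.26-fold higher with a 95% interval of 2.88 to 6.29. The authors' deposited table gave a log2 fold change of 2.09 for Krt18, with a limma adjusted p of 0.0023 and an SE here of 0.25. Tested against a 1.2-fold change Krt18 was still called (limma-type adjusted p = 0.00566), alone among the 8 keratins.

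Krt8, the type II partner, was 3.20-fold higher (95% interval 1.62 to 6.30), from -2.03 to -0.35 log2 CPM. In the authors' deposited table its log2 fold change was 1.68 with a limma adjusted p of 0.0454, and the SE was 0.44. These levels, 0.24 and 0.78 CPM, are low in a table whose means go down to -2.30 log2 CPM, and without counts the handling of values near 0 could not be examined. The same limit holds for Krt18, which was at 0.82 CPM in KrTB and 3.49 CPM in KrTB+DOX. Per kb of exon Krt18 stood 4.56-fold above Krt8 in KrTB and 6.07-fold above it in KrTB+DOX. Krt8 also shared 26.7% of its 1908 words with its pseudogene copy Krt8-ps, which had no row in the table, whereas Krt18 shared 0.58% of 1387 words.

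Krt19, a small type I chain of ducts and of stem cell compartments, had the highest level of the 4 simple keratins per exon length. It went from 1.64 to 2.49 log2 CPM per kb, and the 1.81-fold difference had a 95% interval from 0.76 to 4.31. For Krt19 the authors' deposited table held a limma adjusted p of 0.369. Its transcripts shared 0 of 1803 words with another gene.

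Krt7, the type II chain of ducts and glands, was the 1 keratin of the 8 below 0. It went from 0.57 to -0.10 log2 CPM per kb. The authors' deposited table gave it a log2 fold change of -0.67 and a limma adjusted p of 0.443, and the 95% interval ran from -1.81 to 0.47. The intervals of Krt7 and Krt19 hold both no change and changes of more than 2-fold, so they do not show that these genes stayed the same. Per kb of exon, the order in KrTB was Krt19, Krt7, Krt18 (-0.81 log2 CPM per kb) and Krt8 (-3.00), and in KrTB+DOX it was Krt19, Krt18 (1.28), Krt7 and Krt8 (-1.32). Neighbours in each order lay further apart than the moderated SD between libraries that their SEs imply (0.36 to 0.79). The SD of the libraries themselves is unknown and may be larger, and the order was not tested. Krt7 has long annotated isoforms, and scaled to its main transcript its levels were 1.36 and 0.68 log2 CPM per kb. In KrTB it then lay within its implied SD (0.72) of Krt19 (1.87 log2 CPM per kb), and in KrTB+DOX within it of Krt18 (1.28), so on that scale Krt18 does not stand above Krt7 beyond the spread. Summed, the simple type I chains went from 3.68 to 8.06 CPM per kb and the simple type II chains from 1.61 to 1.33 CPM per kb. All 4 simple keratins together came to 21.3 CPM in KrTB+DOX, against 7115 CPM for the 4 stress keratins.

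RefSeq start regions were available for Krt7, Krt8 and Krt18, and they are shown because Krt8 and Krt18 were the simple pair that rose while their cluster mate Krt7 did not. Each runs from 250 bases before to 50 bases after the annotated start on GRCm38.p6, 5′ to 3′ on the strand of the gene. The windows are chr15:102004293-102004592 on the minus strand for Krt8, chr15:102027966-102028265 on the plus strand for Krt18 and chr15:101412153-101412452 on the plus strand for Krt7. By GENCODE M21 the Krt7 gene begins at 101411043, so its window lies wholly within the gene. The Krt8 and Krt18 windows hold their GENCODE starts, 102004482 and 102028180, though not at the RefSeq start. Capitals mark matches, on either strand, to the TATA box TATAAA, the GC box GGGCGG, the AP-1 site TGANTCA or the GLI site GGGNGGTC.
Krt8: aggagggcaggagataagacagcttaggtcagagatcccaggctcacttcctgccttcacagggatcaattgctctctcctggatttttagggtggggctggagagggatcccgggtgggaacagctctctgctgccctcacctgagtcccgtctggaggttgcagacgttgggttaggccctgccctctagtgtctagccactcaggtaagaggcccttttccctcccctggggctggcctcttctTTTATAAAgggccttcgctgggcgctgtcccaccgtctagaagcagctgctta
Krt18: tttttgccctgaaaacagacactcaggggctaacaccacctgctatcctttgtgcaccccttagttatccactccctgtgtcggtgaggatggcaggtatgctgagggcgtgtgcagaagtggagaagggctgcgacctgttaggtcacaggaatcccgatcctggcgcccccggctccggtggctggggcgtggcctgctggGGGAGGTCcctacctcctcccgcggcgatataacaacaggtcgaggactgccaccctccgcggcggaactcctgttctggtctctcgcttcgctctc
Krt7: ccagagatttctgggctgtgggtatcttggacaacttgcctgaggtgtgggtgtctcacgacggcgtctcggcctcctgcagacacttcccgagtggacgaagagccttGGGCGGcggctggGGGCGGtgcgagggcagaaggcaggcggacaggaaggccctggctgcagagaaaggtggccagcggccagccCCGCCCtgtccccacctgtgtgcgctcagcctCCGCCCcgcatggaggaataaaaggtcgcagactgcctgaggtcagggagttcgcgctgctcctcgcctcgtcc

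Krt8 held TATAAA once on each strand in overlapping letters that span the RefSeq start. This motif was found in 13.6% of the 32851 RefSeq start regions of this length. Krt7 held 4 GC boxes (GGGCGG, in 35.7% of the regions), and Krt8 and Krt18 held none. Krt18 held 1 GLI match (GGGNGGTC, in 4.10% of the regions). None of these 3 windows held TGANTCA, which 7.81% of the regions hold. The number of CG dinucleotides was 21 for Krt7, 17 for Krt18 and 6 for Krt8, with a median of 7 over all regions. These matches describe letters and say nothing of what binds there.

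The SEs of most of these keratins were large for their level. For 6 of the 8 the SE was 2.14 to 4.08 times the median SE of genes with a mean within 0.5 log2 CPM of theirs. Krt17 had an SE of 0.44 where 174 such genes had a median of 0.11, and 98.9% of those genes had a smaller SE. Krt19 (0.56 against 0.14) and Krt7 (0.51 against 0.13) stood as far out among genes near 3 log2 CPM. Krt18 (0.25 against 0.24) and Krt8 (0.44 against 0.38) had SEs near the median of genes as lowly expressed. If the libraries were weighted alike, these SEs stand for a moderated SD between libraries of 0.36 for Krt18, 0.62 for Krt17 and 0.79 for Krt19 on the log2 scale.

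**Figure D3:**
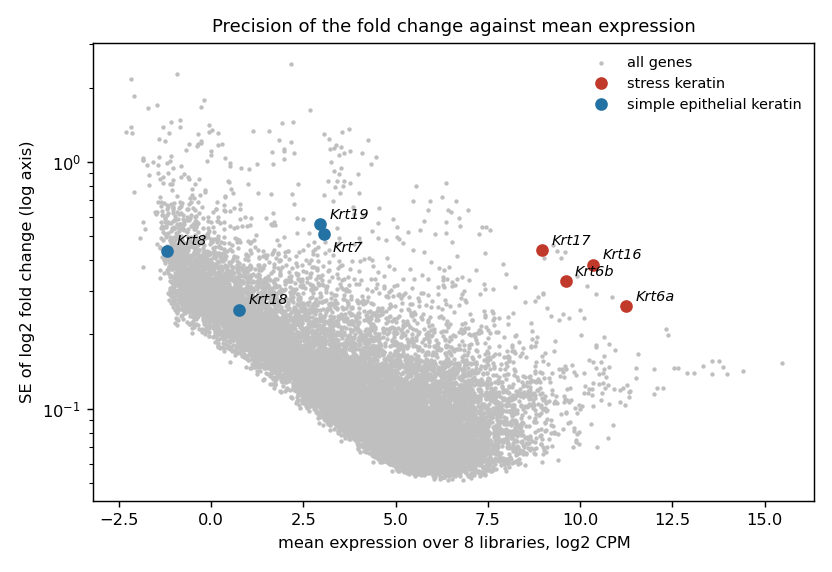
SE of the log2 fold change (y axis, log scale) against mean expression in log2 CPM (x axis) for all 15540 genes (grey), with stress keratins in red and simple epithelial keratins in blue. Krt18 and Krt8 lie within the band of genes of like mean, and the other 6 keratins lie above it, 2.14 to 4.08 times the local median.

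Set beside the rest of the family, the higher keratins were a mixed group. The table held 39 keratin genes, and of the 31 that are not members 5 were called higher and 1 lower, with a median log2 fold change of -0.39. Of 13 keratins of stratified epithelium 4 rose, namely Krt1 (log2 fold change 2.64, SE 0.29), Krt79 (2.03, SE 0.42), Krt80 (0.56, SE 0.13) and Krt15 (0.54, SE 0.14) in the authors' deposited table. Krt1 is the early differentiation chain of the epidermis and Krt15 a chain of basal cells.

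Among the other chains of these layers, the basal pair Krt14 and Krt5, the upper-layer chain Krt10 and the surface pair Krt13 and Krt4 did not pass. Krt14 had 0.80 (SE 0.28, limma adjusted p 0.11), near the 0.79 of Krt6a, as log2 fold change in the authors' deposited table. Krt5 had 0.40 (SE 0.17, limma adjusted p 0.181), Krt10 -0.56 (SE 0.31, 0.288), Krt13 -0.29 (SE 0.14, 0.228) and Krt4 -0.25 (SE 0.15, 0.328) as log2 fold changes in the authors' deposited table. The surface pair and Krt10 lay below 0, while the basal pair lay above it with all 4 stress keratins.

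The follicle-type list had 17 measured keratins and covers hair and root sheath chains together with Krt90. Of these Krt90 rose (log2 fold change 4.34, SE 0.38), and 13 of the 17 lay below 0, with a median of -1.03 in the authors' deposited table. None of those 13 was called by limma, although 6 had an unadjusted p under 0.05, and the SEs of these 17 ran from 0.13 to 0.98 with a median of 0.58. Krt222, outside the lists and picked after its values were seen, fell (log2 fold change -1.47, limma adjusted p 0.0269) in the authors' deposited table.

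By closeness in mean expression and log2 fold change over the 2 groups, the keratin most like Krt6a was Krt14 (0.38 log2 units away), and the same gene was nearest to Krt16 (0.57). Krt15 was nearest to Krt6b (0.59) and Krt80 to Krt17 (1.17). Krt1 was nearest to Krt18 (0.64) and to Krt8 (2.46), and Krt75 to Krt19 (0.86) and Krt7 (1.58). This likeness rests on 2 summary values a gene.

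**Figure D4:**
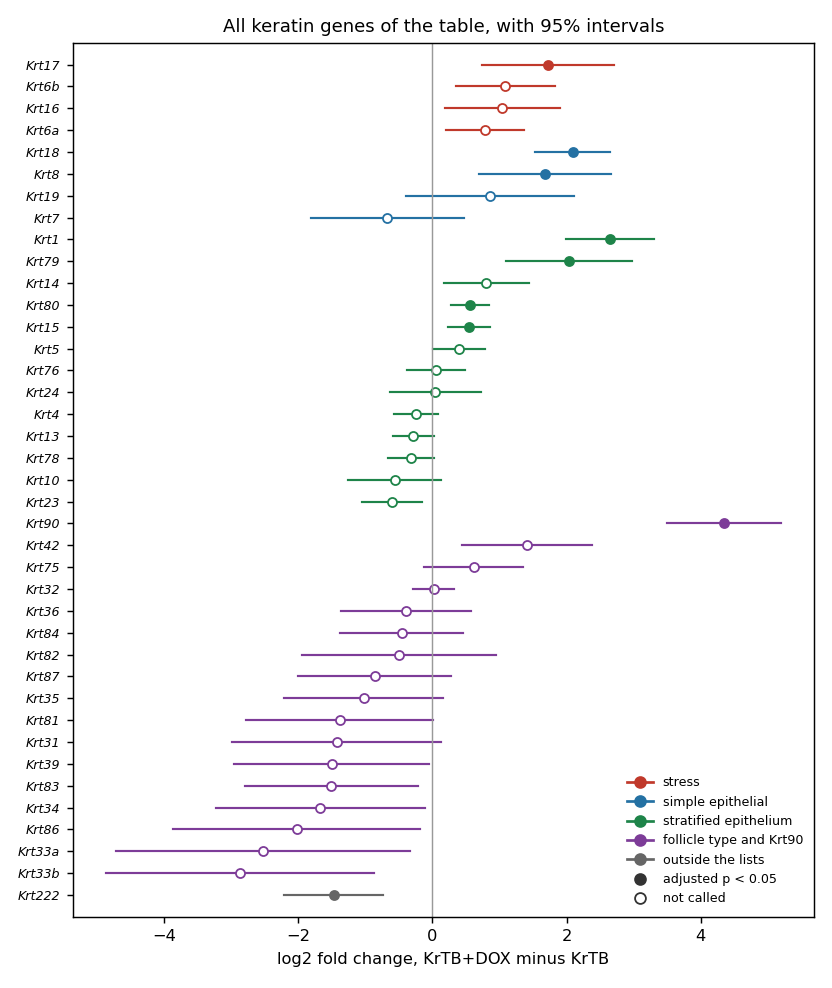
Log2 fold change (x axis, KrTB+DOX minus KrTB) and 95% interval of the 39 keratin genes of the table, grouped by colour into stress, simple epithelial, stratified and follicle-type lists, filled where the adjusted p was under 0.05. The 4 stress keratins lie between 0.79 and 1.72, the simple keratins range from -0.67 to 2.09, and 13 of 17 follicle-type keratins lie below 0 with wide intervals.

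The members sit in the mouse keratin clusters (GRCm38, GENCODE M21 positions). Krt7 (chromosome 15, 101411043 to 101430313, plus strand, 9 exons), Krt6b (101676023 to 101680287, minus strand), Krt6a (101689910 to 101694307, minus strand), Krt8 (101996698 to 102004482, minus strand) and Krt18 (102028180 to 102032027, plus strand, 7 exons) lie on chromosome 15. Krt18 is the 1 type I gene of that cluster. Krt19 (100140810 to 100148665), Krt16 (100246091 to 100248902) and Krt17 (100256217 to 100261029) lie on the minus strand of chromosome 11.

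From Krt7 to Krt18 on chromosome 15, a span of 620985 bp, 19 genes had a value, 5 were called higher and 0 lower by limma, and the median log2 fold change was 0.05. Krt7 was followed by Krt87 (-0.86) and Krt81 (-1.38), and none of these 3 log2 fold changes passed in the authors' deposited table. The nearer edge of Krt81, a minus-strand gene, is 28747 bp from the end of Krt7. Krt6b and Krt6a lie 9622 bp apart with Krt5 12762 bp further on. Krt8 and Krt18 are 23697 bp apart, and the next genes on either side were not called, namely Krt78 (log2 fold change -0.32, limma adjusted p 0.232) and Eif4b (-0.19, 0.112) in the authors' deposited table.

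On chromosome 11, Krt16 and Krt17 are 7314 bp apart, and Krt42, 1852 bp beyond Krt17, had a log2 fold change of 1.41 (SE 0.43, limma adjusted p 0.0764) in the authors' deposited table. All 5 genes with a value from Krt19 to Krt17 had fold changes above 0, and Krt17 was the 1 called. Of these 5, Krt19 had an interval from -0.39 to 2.11. Gm11597 averaged only 0.21 log2 CPM and holds 25.0% of the words of Krt16, so its value may not be separate from that of Krt16. Krt15, which rose, lies 4881 bp from Krt19.

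**Figure D5:**
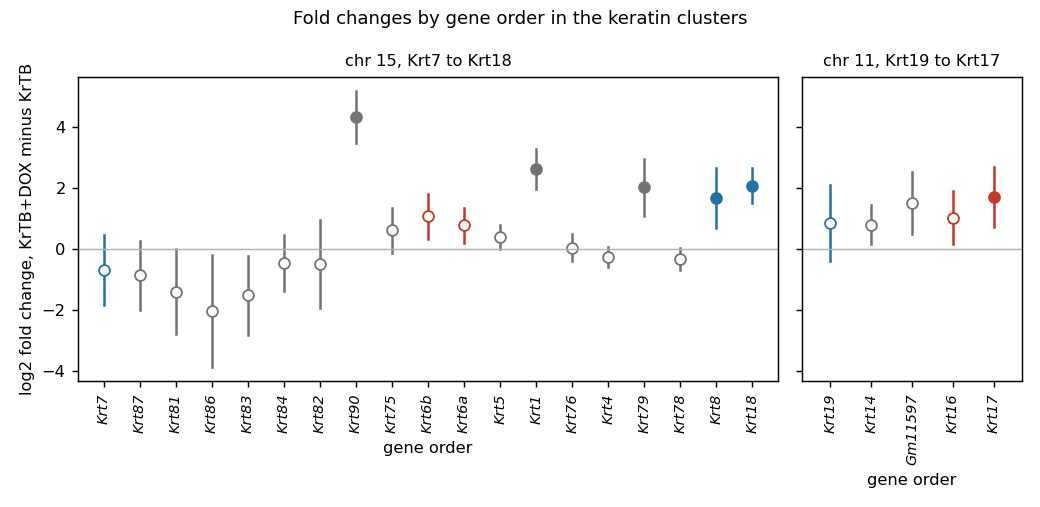
Log2 fold change (y axis, KrTB+DOX minus KrTB) with 95% intervals for genes with a value in chromosomal order, from Krt7 to Krt18 on chromosome 15 and from Krt19 to Krt17 on chromosome 11, filled where the adjusted p was under 0.05, with stress keratins in red, simple keratins in blue and other genes in grey. Krt8 and Krt18 are adjacent and both filled, and the hair keratins after Krt7 lie below 0. All 5 genes of the chromosome 11 stretch lie above 0, with the interval of Krt19 crossing it.

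Genes of the pathways known to induce stress keratins in keratinocytes, regulators such as Keap1 and Gli3 included, were listed and counted. Beside 7588 of all 15540 genes above 0, 26 of the 30 measured members lay above 0. Their median log2 fold change was 0.22, and 4 of the 30 rose. In the authors' deposited table these were Fosl1, an AP-1 subunit (log2 fold change 1.72, SE 0.29), and the cytokines Il1b (1.89, SE 0.40) and Il1a (0.71, SE 0.16). The other was Gli2, a Hedgehog effector, 1.99-fold higher with an SE of 0.18 on the log2 scale. Il1b averaged -0.94 log2 CPM, and Il6, Il17a, Il22, Il36a, Il36b, Il36g, Tnf and Aire had no row.

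Wound-edge genes and defence genes, which often accompany stress keratins, were counted in the same way. Of 25 wound-edge keratinocyte genes 2 rose, the laminin receptor subunit Itga3 (log2 fold change 0.63, SE 0.08) and the hormone Pthlh (2.06, SE 0.29) in the authors' deposited table. The integrin Itgb6 had a log2 fold change of -0.35 (limma adjusted p 0.0696) in the authors' deposited table. Among 17 measured alarmin and barrier defence genes 1 fell, the envelope precursor Sprr1a (log2 fold change -1.37, SE 0.35), and 11 lay below 0 in the authors' deposited table. S100a8, an alarmin, averaged -0.27 log2 CPM and had 0.98 (SE 0.47, limma adjusted p 0.228) in the authors' deposited table.

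Genes for keratin linkers and chaperones were 23 in number and 1 fell, the envelope plakin Evpl (log2 fold change -0.40, SE 0.08), while 19 lay above 0 with a median of 0.10 in the authors' deposited table. Its relative Ppl had -0.32 (limma adjusted p 0.069) and the keratin-binding 14-3-3 protein Sfn 0.37 (0.2) as log2 fold changes in the authors' deposited table.

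For the simple keratins, the matching list held factors and surface proteins of simple and glandular epithelium. Of 25 measured members 2 rose, 14 lay above 0 and 11 below it, and the median was 0.01. At an unadjusted limma p under 0.05, 6 were higher and 4 lower, beside 1905 higher and 2018 lower of all 15540 genes. The 2 that rose were the ductal and progenitor factor Sox9 (log2 fold change 2.72, SE 0.25) and the adhesion protein Epcam (0.75, SE 0.19) in the authors' deposited table. The tight junction protein Cldn4 had 0.59 (limma adjusted p 0.0661) and the epithelial factor Elf3 0.66 (0.0671) as log2 fold changes in the authors' deposited table.

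Cell types known for Krt8 and Krt18 were checked by their other markers. Of 23 taste bud markers other than these keratins 16 had a value, 14 lay below 0, and 2 fell, Prox1 (log2 fold change -0.52) and the transducin subunit Gnb3 (-1.32), in the authors' deposited table. Their summed level went from 263.4 to 289.2 CPM, and a single gene turned its direction. Itpr3, a calcium release channel and the most abundant of the 16, went from 153.2 to 200.9 CPM (log2 fold change 0.39, limma adjusted p 0.0577) in the authors' deposited table, and the other 15 went from 110.1 to 88.3 CPM. Krt20, Trpm5, Gnat3, Tas1r2, Pkd2l1, Gng13 and Otop1 had no row. Of 14 such Merkel cell markers 7 had a value and 1 fell (Sox2, log2 fold change -0.64), in the authors' deposited table, the sum went from 79.8 to 51.6 CPM, and the defining Atoh1, Pou4f3, Chga and Insm1 had no row.

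Of 24 such salivary gland markers 8 had a value and 1 rose (Tcn2, log2 fold change 0.44) in the authors' deposited table. Their sum went from 328.8 to 359.6 CPM, and 6 of the 8 lay above 0 and 2 below it. The amylase gene Amy1 had a log2 fold change of 0.46 (limma adjusted p 0.0931) and Aqp5 0.32 (0.76) in the authors' deposited table. The acinar genes Bhlha15, Muc5b, Muc19, Lpo, Bpifa2, Pip and Prb1 were among the 16 with no row. Of the mesothelial markers other than keratins 1 of 4 had a value, Msln, with a log2 fold change of -0.75 (limma adjusted p 0.273) in the authors' deposited table and a mean of -0.28 log2 CPM. Over these lists Tcn2 was the 1 marker called higher by limma, and at an unadjusted p under 0.05 the higher markers numbered 1 for taste buds, 0 for Merkel cells and 2 for salivary gland. The part of any of these cells in the keratin values was not tested.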

How the data were processed

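Per the labels' protocols, stranded mRNA libraries from tongue epithelium were read as pairs of 51 bp. GRCm38, HTSeq 0.11.2, STAR 2.5.2b, cutadapt and bcl2fastq 2.20 are named, without roles, in the submitters' processing notes. The deposited table holds limma's columns for 15540 genes and 0 columns per library. Its log2 fold changes and log2 means were deposited by the authors; the means are log2 CPM, since 2 raised to them sums to 985251. Its p-value columns and the moderated t score were also deposited by the authors, and recomputed Benjamini-Hochberg values matched within 6.4e-15. The sources used here do not give the authors' filter, normalization or design formula.

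The SE was the fold change divided by the moderated t. It and the SDs it implies are therefore drawn toward those of other genes and are not the raw spread of the libraries. Intervals used the 9.76 degrees of freedom that link t to p, and group levels are the mean plus or minus 0.5 times the log2 fold change, which assumes libraries of equal weight. Levels per kb used the union of GENCODE M21 exons. Words of 51 bases were compared over all M21 transcripts, and coding sequences were aligned globally with Biopython 1.88. The SE, the degrees of freedom, the Benjamini-Hochberg values and the test against a 1.2-fold change were checked on simulated data with limma 3.58.1. The levels, words and alignments were not checked in that way.

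The members and the 17 other gene lists were chosen with earlier results of these data known. The rule for named genes takes the members, all keratins of the lists that were called with 7 fixed ones, the 3 nearest keratins and 2 neighbours on each side of a member, and up to 4 genes of smallest p per list. A gene that the rule takes is not reported here. Other names were picked after their values were seen. The design foresaw a count model with values per library; the deposited limma statistics took its place. The labels say the 4 libraries of a group are biological replicates.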

Additional observations from a re-analysis of the deposited data

How the results depend on the processing

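Testing against a 1.2-fold change left 222 genes called in place of 1263, with 0 of 4 stress keratins and 1 of 4 simple keratins (Krt18). Benjamini-Yekutieli adjustment left 147 genes, 0 stress keratins and 1 simple keratin (Krt18). By limma without adjustment all 4 stress keratins had a p under 0.05, beside 1905 of all 15540 genes that were higher at that p. An adjusted p under 0.1 gave 2347 genes and 3 stress keratins (Krt17, Krt6b and Krt6a). Restricting the adjustment to genes averaging at least 1 log2 CPM removed Krt8 and Krt18, leaving 0 simple keratins called of 2 tested (Krt7 and Krt19, neither with an unadjusted p under 0.05). Centring on the median and removing a GC and length trend (97.1% of genes had both values) changed none of the 8 keratins' calls. No alternative turned the sign of a keratin, and the trend moved their log2 fold changes by at most 0.028. Of 46 keratin values under these alternatives 40 kept their side of the threshold, and of 126 counts over the other lists 76 stayed within 1.5 times. Many of the 40 could not move, since a stricter test cannot add a call and an adjusted p under 0.1 cannot remove one. The 126 counts take the taste bud, Merkel cell, salivary gland and mesothelium lists both with and without the 8 keratins. No paired analysis was possible because the table has no values per library. For the same reason leaving out a replicate, DESeq2, another normalization and another low-count filter were not run, and depth per library is unknown. The causes of these differences were not tested.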
